A study of Homo sapiens with 9 samples.

Results

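HSF1, HSF2 and HSBP1 are the 2 most abundant heat shock transcription factors of these cells and the small protein that binds HSF1, and their transcripts were followed through heat stress and recovery. They were chosen by name, by a rule that uses no measured value but with earlier results of these data known, and are 3 of the 60664 genes in the count table. All 3 passed the filter on low counts, as did 21139 genes in all. The samples were HEK293T cells, a human embryonic kidney line carrying the SV40 large T antigen, grown at 37°C. NC cells, labelled wild-type, were left untreated. H1 cells were held at 43°C for 1 h in a water bath. H1R1, H1R6 and H1R18 cells were heated in the same way and then recovered at 37°C over 1, 6 and 18 h. Each condition had 2 libraries except H1R18, which had 1, and all were of the same line.

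Heat shock factors are kept inactive in unstressed cells, HSF1 as a monomer held by chaperones such as HSP90 and HSP70. When unfolded proteins accumulate and occupy the chaperones, HSF1 is released, forms trimers and binds heat shock elements, arrays of inverted GAA units in the promoters of chaperone genes. HSF2 binds the same elements, can form mixed trimers with HSF1, and is known to be controlled largely by how much of it is made and degraded, whereas HSF1 is controlled by its assembly and by modification of the protein. HSBP1 is a short coiled-coil protein that binds the trimerization domain of HSF1 and was described as a negative regulator of it. RNA levels, which are what was measured here, do not show these protein states.

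The promoters of HSF2 and HSBP1 are shown beside that of HSPA8, the constitutive HSP70, because HSPA8 transcripts rose with heat and its promoter holds sequences that match heat shock elements. Each stretch runs from 250 bases before to 50 bases after an annotated start (RefSeq, GRCh38.p14). The motifs searched were the paired units GAANNTTC and TTCNNGAA, which each read the same on both strands and can overlap each other, and capitals mark them. The stretches are chr6:122399301-122399600 on the plus strand for HSF2, chr16:83807728-83808027 on the plus strand for HSBP1 and chr11:123062087-123062386 on the minus strand for HSPA8.
HSF2: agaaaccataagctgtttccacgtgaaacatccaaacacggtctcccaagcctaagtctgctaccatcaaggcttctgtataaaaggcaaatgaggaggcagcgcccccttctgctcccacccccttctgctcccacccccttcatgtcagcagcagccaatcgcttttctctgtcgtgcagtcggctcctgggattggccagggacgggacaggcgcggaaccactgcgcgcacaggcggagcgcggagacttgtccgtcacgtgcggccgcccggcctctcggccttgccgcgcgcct
HSBP1: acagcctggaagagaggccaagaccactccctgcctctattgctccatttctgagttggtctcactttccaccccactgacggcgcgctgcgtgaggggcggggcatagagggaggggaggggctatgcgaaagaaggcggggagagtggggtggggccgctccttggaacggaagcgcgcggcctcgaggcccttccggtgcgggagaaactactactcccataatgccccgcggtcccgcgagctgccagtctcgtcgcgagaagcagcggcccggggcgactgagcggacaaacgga
HSPA8: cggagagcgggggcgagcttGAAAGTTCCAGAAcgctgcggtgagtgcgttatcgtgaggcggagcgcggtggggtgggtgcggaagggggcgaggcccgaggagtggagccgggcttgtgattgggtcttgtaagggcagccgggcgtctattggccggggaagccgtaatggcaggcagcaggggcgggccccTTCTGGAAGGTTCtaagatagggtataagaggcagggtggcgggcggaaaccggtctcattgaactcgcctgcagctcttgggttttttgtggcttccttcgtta

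HSF1 was not searched. Neither motif was found in the HSF2 or HSBP1 stretch, nor in the stretch of a further HSF2 start at chr6:122399402-122399701. The HSPA8 stretch holds 4 matches, which begin 230, 225, 55 and 50 bases before the start, and each overlapping pair shares a unit, which makes an array of 3. Of 35116 such stretches, 13.5% hold at least 1 of the paired motifs and 0.49% hold an array of 3 units of alternating direction. Counted by gene, where any stretch of the gene is enough, the shares are 16.2% and 0.608% of 27305 genes. Among 25 heat shock factor target genes with a stretch, 18 held a paired motif and 8 held an array of 3 units. These counts describe letters in a window, and binding was not measured.

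The libraries held 3814195 to 6221613 counts. The genes listed as markers of HEK293 cells were detected in every library (PAX2 at 32 to 68 counts, NEFM at 182 to 329, LIN28B at 328 to 852, CDH2 at 263 to 370 and VIM at 792 to 1615). VIM does not set them apart from HeLa cells, in which the paper describes high vimentin. Albumin (ALB), AFP, APOA1, APOB and FGB, which mark the liver line Huh7 of the same study, had 0 to 4 counts, and of the HeLa markers KRT7 and KRT17 had 0 to 4 and CAV1 24 to 67. Levels are given as CPM (read counts scaled by library size and TMM), and changes are log2 fold changes from edgeR's quasi-likelihood test with Benjamini-Hochberg adjustment over all genes tested. A transcript is said to have risen or fallen only where its adjusted p was under 0.05. Whether replicate libraries came from different cultures is not stated, so p-values measure the spread between libraries, which may be technical. The single H1R18 library is assumed in the test to vary as the others do. In RNA from many cells, a change in transcript per cell and a change in the share of cells with it cannot be told apart.

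HSF1 transcripts changed little between untreated and heat-stressed cells, and their clearest movement was during recovery. The NC libraries had 88.1 and 78.3 CPM of HSF1, those of H1 92.7 and 86.4 CPM, those of H1R1 102 and 95.2 CPM, those of H1R6 74.5 and 76.5 CPM, and the H1R18 library 103 CPM. Both H1R1 libraries and the H1R18 library stood above both NC libraries, both H1R6 libraries stood below them, and the H1 and NC libraries overlapped. Mean CPM was 83.2 ± 6.94 for NC, 89.5 ± 4.48 for H1, 98.5 ± 4.64 for H1R1 and 75.5 ± 1.4 for H1R6 (SD, n = 2 libraries each). In order of level, H1R6 came lowest, then NC, H1, H1R1 and H1R18. NC and H1 overlapped in that order, and the higher H1R1 library (102 CPM) was close to the H1R18 library (103 CPM).

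HSF2 transcripts were lowest at H1R1 and highest at H1R18. The NC libraries had 44.5 and 59.0 CPM of HSF2, those of H1 40.6 and 44.9 CPM, those of H1R1 38.6 and 35.2 CPM, those of H1R6 47.7 and 51.8 CPM, and the H1R18 library 74.7 CPM. The H1R18 library was above every other library and both H1R1 libraries were below every other library, while NC overlapped with H1 and with H1R6. Mean CPM was 51.7 ± 10.3 for NC, 42.8 ± 2.98 for H1, 36.9 ± 2.42 for H1R1 and 49.8 ± 2.91 for H1R6 (SD, n = 2 libraries each). The SD of NC was the largest of these 4, so comparisons of HSF2 with NC lean on 2 libraries that differ from each other.

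HSBP1 transcripts were lowest at H1R18 and highest at H1R1. The NC libraries had 124 and 122 CPM of HSBP1, those of H1 130 and 137 CPM, those of H1R1 149 and 138 CPM, those of H1R6 123 and 125 CPM, and the H1R18 library 90.6 CPM. The H1R18 library was below every other library. Both H1 and both H1R1 libraries were above both NC libraries, and the H1R6 and NC libraries overlapped. Mean CPM was 123 ± 1.98 for NC, 134 ± 5.27 for H1, 143 ± 7.21 for H1R1 and 124 ± 1.83 for H1R6 (SD, n = 2 libraries each).

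**Figure D1:**
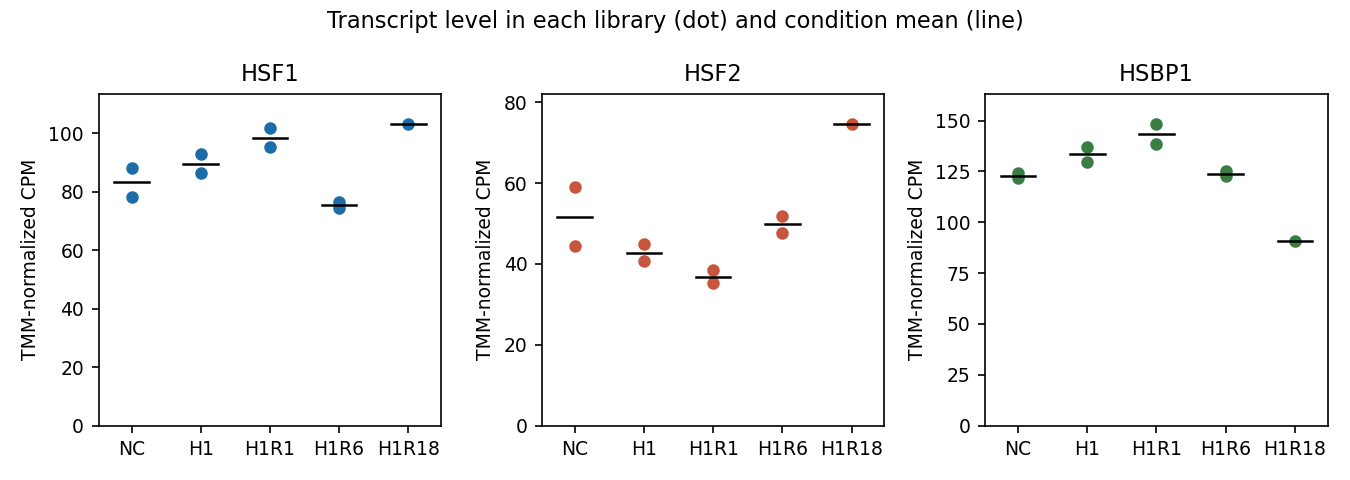
TMM-normalized CPM (vertical axis, from 0) of HSF1, HSF2 and HSBP1 as dots, 1 per library, by condition, with lines at the condition means. The single H1R18 library is the highest for HSF2 (74.7 CPM) and the lowest for HSBP1 (90.6 CPM), and both H1R1 libraries are the lowest for HSF2.

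To ask whether the heat stress itself was followed by a change in these transcripts, H1 was compared with NC. None of the 3 was called, where 5.2% of genes tested were called (3.43% higher and 1.77% lower). The log2 fold change was 0.10 for HSF1 (95% interval -0.11 to 0.31, adjusted p = 0.684) and 0.12 for HSBP1 (-0.07 to 0.30, adjusted p = 0.556). For HSF2 it was -0.26 (-0.56 to 0.03, adjusted p = 0.365). Without NC replicate 2 the value of HSF2 was -0.05 and without NC replicate 1 it was -0.46, and with a library left out that of HSF1 ranged from 0.03 to 0.20, with none of these called. The intervals leave room for a rise of HSF1 of up to 1.24-fold and for a fall of HSF2 to 0.678 of NC. In the same comparison 23 of the 25 tested heat shock factor target genes rose.

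After 1 h of recovery, HSF2 transcripts had fallen. HSF2 was at 38.6 and 35.2 CPM at H1R1, against 44.5 and 59.0 CPM in NC, or 0.721-fold (log2 -0.47, SE 0.15, adjusted p = 0.0234). HSF1 and HSBP1 had values of 0.24 (log2, SE 0.10, adjusted p = 0.102) and 0.22 (SE 0.09, adjusted p = 0.0806), and neither passed the test. The 1 call among the 3 genes stands beside a background of 20.2% of genes called (10.7% higher and 9.53% lower), so a call in this comparison was common. The call of HSF2 was lost without NC replicate 2 (-0.26, adjusted p = 0.339), without H1R1 replicate 1 (-0.54, adjusted p = 0.065) and without H1R1 replicate 2 (-0.41, adjusted p = 0.122).

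From H1 to H1R1 none of the 3 was called, with 11.4% of genes called (6.35% higher and 5.08% lower). The log2 fold changes of H1R1 against H1 were 0.14 for HSF1 (adjusted p = 0.435), -0.21 for HSF2 (adjusted p = 0.429) and 0.11 for HSBP1 (adjusted p = 0.515). Each had the sign it had in H1 against NC. Both comparisons use the H1 libraries, on opposite sides, so these signs are not independent of each other.

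At H1R6 the 3 transcripts were near their levels in NC, and none was called. The log2 fold changes of H1R6 against NC were -0.14 for HSF1 (95% interval -0.36 to 0.07), -0.04 for HSF2 (-0.34 to 0.25) and 0.01 for HSBP1 (-0.17 to 0.19), with adjusted p of 0.504, 0.915 and 0.975. The background was 7.03% of genes called, 3% higher and 4.03% lower. The sign for HSF2 turned to 0.18 without NC replicate 2 and to 0.04 without H1R6 replicate 1.

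Between H1R1 and H1R6, HSF1 and HSF2 moved in opposite directions. HSF1 fell, at 74.5 and 76.5 CPM at H1R6 against 102 and 95.2 CPM at H1R1 (log2 fold change -0.39, SE 0.10, adjusted p = 0.009, 0.766-fold). HSF2 rose, at 47.7 and 51.8 CPM at H1R6 against 38.6 and 35.2 CPM at H1R1 (0.43, SE 0.15, adjusted p = 0.045, 1.34-fold). HSBP1 stood at -0.21 (log2, SE 0.09, adjusted p = 0.103), with both H1R6 libraries below both H1R1 libraries. In this comparison 15.4% of genes were called (6.43% higher and 8.93% lower). The HSF1 call was lost without H1R1 replicate 1 or H1R6 replicate 1 (adjusted p = 0.103 in each), without H1R6 replicate 2 (adjusted p = 0.0616) and when counts were scaled by library size only (-0.29, adjusted p = 0.0501). The HSF2 call was lost with DESeq2 (0.44, adjusted p = 0.0743) and without any 1 of the H1, H1R1 or H1R6 libraries (0.36 to 0.50, adjusted p = 0.0548 to 0.209).

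At 18 h of recovery HSF2 was above and HSBP1 below untreated cells. HSF2 rose to 74.7 CPM at H1R18, against 44.5 and 59.0 CPM in NC (log2 fold change 0.54, SE 0.17, adjusted p = 0.0396, 1.45-fold). HSBP1 fell to 90.6 CPM at H1R18, against 124 and 122 CPM in NC (-0.44, SE 0.12, adjusted p = 0.0134, 0.736-fold). The log2 fold change of HSF1, 0.31 (SE 0.13, adjusted p = 0.13), missed the threshold, at 103 CPM in H1R18 against 88.1 and 78.3 CPM in NC. The background was 11% of genes called (4.58% higher and 6.43% lower). The HSF2 call was lost with DESeq2 (0.56, adjusted p = 0.0553) and without NC replicate 1 (0.36, adjusted p = 0.24), H1 replicate 1 (adjusted p = 0.0535) or H1 replicate 2 (adjusted p = 0.0502). The HSBP1 call was lost without NC replicate 1 (-0.40, adjusted p = 0.054) and with only NC and H1R18 in the fit (-0.41, adjusted p = 0.0525).

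From H1R6 to H1R18 all 3 transcripts were called, where 13.9% of genes were called (6.28% higher and 7.65% lower). HSF1 rose to 103 CPM at H1R18, against 74.5 and 76.5 CPM at H1R6 (log2 fold change 0.45, SE 0.13, adjusted p = 0.0155, 1.37-fold). HSF2 rose by 0.59 (SE 0.17, adjusted p = 0.0184, 1.5-fold). HSBP1 fell to 90.6 CPM at H1R18, against 123 and 125 CPM at H1R6 (-0.45, SE 0.12, adjusted p = 0.00863, 0.731-fold). The HSBP1 call held in all 17 alternatives run (adjusted p 0.0034 to 0.0471). The HSF1 call was lost without either H1R6 library (adjusted p = 0.0737 and 0.0571), and the HSF2 call without H1R6 replicate 1 (0.53, adjusted p = 0.0995). All of these values rest on 1 H1R18 library.

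**Figure D2:**
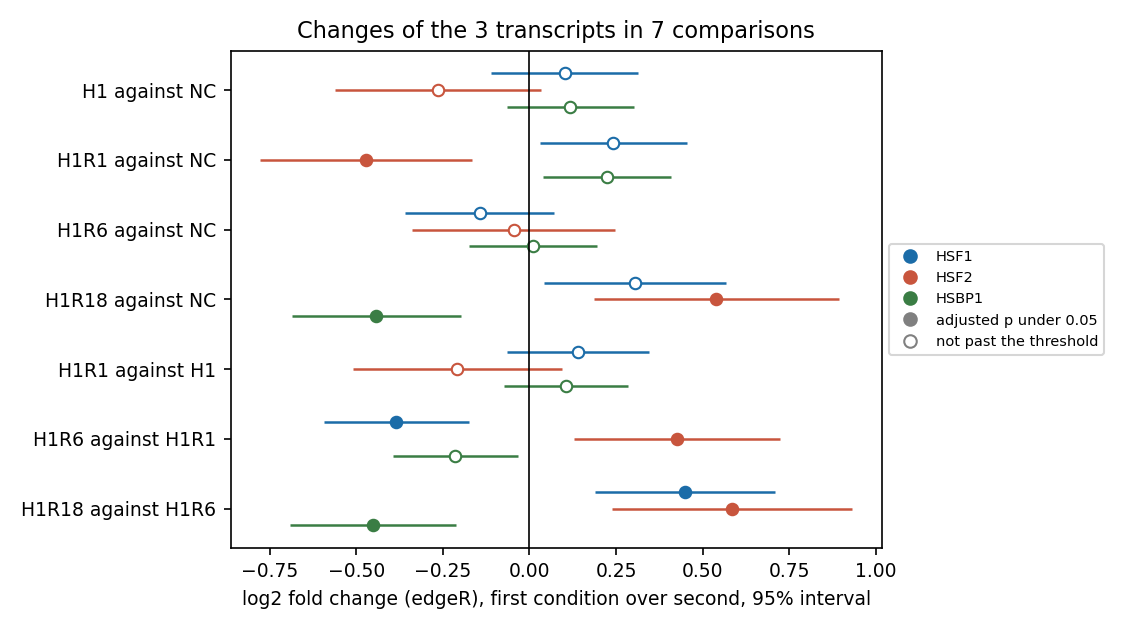
Log2 fold change (horizontal axis, first condition over second) with its 95% interval for HSF1, HSF2 and HSBP1 in the 7 comparisons, filled where the adjusted p was under 0.05. No transcript is filled at H1 or H1R6 against NC, HSF2 is filled at -0.47 for H1R1 and 0.54 for H1R18, and all 3 are filled for H1R18 against H1R6.

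The sizes of these changes were ordinary when ranked among all genes tested, whatever their level. That ranking includes genes of low counts, whose fold changes are less certain, and genes of like level were not ranked apart. At H1R1 against NC, 43.6% of genes had a larger change in either direction than HSF2, and 66.1% and 68.4% had a larger one than HSF1 and HSBP1. At H1R18 against NC, 40.4%, 47.2% and 60.3% of genes had a larger change than HSF2, HSBP1 and HSF1. At H1R6 against NC 97.9% of genes had a larger change than HSBP1.

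The balance between the transcripts within a library was read as a log2 ratio of CPM per kb of merged exon, which scales each gene by the length of its exons in the table (5305 bases for HSF1, 2697 for HSF2 and 9390 for HSBP1). The HSF1 to HSF2 ratio was 0.01 and -0.57 in NC, and averaged -0.28 ± 0.41 for NC, 0.09 ± 0.17 for H1, 0.44 ± 0.03 for H1R1 and -0.37 ± 0.06 for H1R6 (SD, n = 2 libraries each), with -0.51 at H1R18. The HSBP1 to HSF2 ratio averaged -0.54 ± 0.31 for NC, -0.16 ± 0.04 for H1, 0.16 ± 0.02 for H1R1 and -0.48 ± 0.06 for H1R6 (SD, n = 2 libraries each), with -1.52 at H1R18. The means of both ratios were highest at H1R1, and both were lowest at H1R18, although 1 NC library was below H1R18 for HSF1 over HSF2. The HSBP1 to HSF1 ratio moved less before H1R18, with means of -0.26 (NC), -0.25 (H1), -0.28 (H1R1) and -0.11 (H1R6), and -1.01 in the H1R18 library. No test was made of the ratios.

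**Figure D3:**
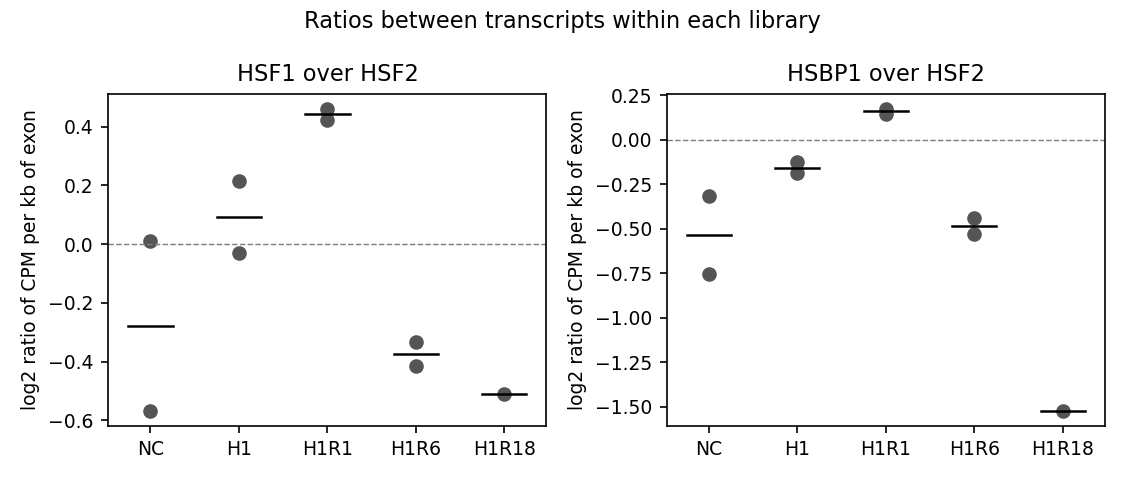
Log2 ratio of CPM per kb of merged exon (vertical axis) of HSF1 over HSF2 and of HSBP1 over HSF2 in each library (dots) with the condition mean as a line and a dashed line at 0. Both H1R1 libraries are the highest in each panel (means 0.44 and 0.16), the H1R18 library is at -0.51 and -1.52, and the 2 NC libraries are far apart in both.

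The order of the 3 levels depended on the length used. With merged exons, the mean levels in NC were 15.7 CPM per kb for HSF1, 19.2 for HSF2 and 13.1 for HSBP1, above 84.8%, 88.1% and 81.3% of genes tested. With the principal transcripts of GENCODE 29 they were 38.8 CPM per kb for HSF1 (HSF1-204, 2142 bases) and 20.3 for HSF2 (HSF2-201, 2549 bases). For HSBP1, the 2 principal transcripts gave 14 (HSBP1-201, 8784 bases) and 121 CPM per kb (HSBP1-204, 1020 bases). GENCODE 29 lists 14 HSF1 transcripts, 8 of them with a retained intron, against 3 for HSF2 with none and 4 for HSBP1 with 1. Counts per gene do not separate these transcripts. With 1 fixed length per gene, the fold changes between conditions are the same whichever length is used. A shift between long and short transcripts of a gene could also change its counts, and this was not tested.

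Across the 9 libraries, log2 CPM of HSF2 and HSBP1 ran in opposite directions (Pearson r = -0.89), while r was -0.12 for HSF1 with HSF2 and -0.09 for HSF1 with HSBP1. Without the H1R18 library, an alternative chosen after the data were seen, r over 8 libraries was -0.75 for HSF2 with HSBP1, -0.84 for HSF1 with HSF2 and 0.84 for HSF1 with HSBP1. The H1R18 library, in which HSF1 and HSF2 were both high and HSBP1 was low, therefore set the low values of the last pairs. These correlations are descriptions of libraries that share conditions and library sizes, and no test was made.

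The other genes of the family were low or undetected. HSF4, a factor best known from the lens, stayed between 5.65 CPM, in the H1R18 library, and a mean of 7.89 CPM, at H1, with 6.25 CPM for NC, and was called in none of the comparisons with NC (log2 fold changes -0.14 to 0.34). HSBP1L1, a paralog of HSBP1, averaged 3.15 CPM at H1R6, against 7.38 CPM in NC. Its log2 fold change at H1R6 against NC was -1.22 (SE 0.40) and missed the threshold (adjusted p = 0.0619). HSF5 had at most 2 counts in a library, HSFX2 and HSFX4 at most 6, and HSFX1 and HSFX3 had 0, and none of these 5 was tested.

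The genes listed as chaperones and partners of HSF1 rose widely at H1 and H1R1. Of 17 tested genes of this list, H1 against NC had 9 that rose and none that fell (median log2 fold change 0.26, against -0.01 for all genes), H1R1 had 15 and 1 (0.60, against -0.01), H1R6 had 9 and 2 (0.24, against -0.01), and H1R18 had 2 and 8 (-0.32, against -0.03). Of all genes, 5.2%, 20.2%, 7.03% and 11% were called in these comparisons. From this and each later list, the 4 most abundant genes and the 4 with the smallest adjusted p against NC were named. The latter were picked by these same data, so their being called is no separate result. HSP90AA1, the heat-inducible HSP90, had 985 and 999 CPM in the NC libraries, 2178 and 2248 in those of H1, 3438 and 3544 in those of H1R1, 4035 and 4340 in those of H1R6, and 2194 in that of H1R18. It rose in all 4 comparisons with NC, by 1.16, 1.82, 2.08 and 1.15 on the log2 scale. HSP90AB1, the constitutive HSP90, rose in them too, by 0.70, 1.21, 1.25 and 0.32. HSF1 itself was called in none of these 4 comparisons.

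DNAJB1, an HSP40 that recruits HSP70 to HSF1, had the largest changes of the list at H1 and H1R1. It had 69.5 and 80.4 CPM in the NC libraries, 1910 and 2096 in those of H1, 3684 and 3825 in those of H1R1, 139 and 219 in those of H1R6, and 59.0 in that of H1R18, so that it rose by 4.75 at H1, 5.65 at H1R1 and 1.26 at H1R6 on the log2 scale and was not called at H1R18 (-0.34). HSPA8 rose at H1 (0.98) and H1R1 (2.04), was not called at H1R6 (0.17) and fell at H1R18 (-0.81, SE 0.14, adjusted p = 0.000133), although not with DESeq2 (-0.79, adjusted p = 0.0567). HDAC6, a deacetylase that binds HSP90 and HSF1, was the 1 gene of the list that fell at H1R1 (-0.64), and it also fell at H1R6 (-0.46), where CCT5 fell too (-0.26). HDAC6, CCT5 and the other genes of the next sentence were named after their values were seen, and the alternatives were not run for them. CCT5 belongs to the chaperonin TRiC, and of its 8 listed subunits CCT2, CCT3, CCT5, CCT6A and CCT7 fell at H1R18, together with STUB1 and VCP. HSPA1A and HSPA1B, near-identical HSP70 genes, had 0 to 3 counts in the libraries and were not tested. The paper describes HSPA1A protein as higher mainly during recovery, so these counts are not read as absence of the transcripts. Why the counts were so low was not tested.

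Of 18 kinases and phosphatase parts that act on HSF1, 4 rose and none fell at H1, 8 rose and 1 fell at H1R1, 3 rose and none fell at H1R6, and 1 rose and 2 fell at H1R18 (median log2 fold changes 0.08, 0.27, 0.09 and 0.02, against -0.01, -0.01, -0.01 and -0.03 for all genes), where 5.2%, 20.2%, 7.03% and 11% of all genes were called. IER5, which brings phosphatase PP2A to HSF1 and is itself an HSF1 target, had 75.5 and 76.7 CPM in the NC libraries, 179 and 185 in those of H1, 223 and 275 in those of H1R1, 91.5 and 109 in those of H1R6, and 62.9 in that of H1R18. It rose by 1.26, 1.71 and 0.40 on the log2 scale at H1, H1R1 and H1R6, and had -0.28 at H1R18 (adjusted p = 0.252). PPP2R2A, the PP2A subunit that works with IER5, rose at H1 (0.55), H1R1 (0.75) and H1R6 (0.54). DYRK2, a kinase reported to favour active HSF1, rose at H1 (0.47), H1R1 (0.65) and H1R18 (0.41), and GSK3B, whose phosphorylation represses HSF1, rose at H1 (0.41) and H1R1 (0.43). At H1 the calls of PPP2R2A (adjusted p = 0.123), DYRK2 (0.0524) and GSK3B (0.0517) were lost without H1 replicate 2, that of DYRK2 also without NC replicate 1 (0.108) and that of GSK3B also without NC replicate 2 (0.052). The IER5 call at H1R6 was lost without either NC library or H1R6 replicate 2 (adjusted p 0.0592 to 0.291), and the DYRK2 call at H1R18 without NC replicate 1 or with no filter (0.0562 to 0.165).

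CSNK2A1, a casein kinase 2 subunit, rose at H1R1 (0.38). MTOR, a kinase that phosphorylates HSF1, was called in none of the comparisons with NC (-0.20 to 0.01). PRKAA1, a catalytic subunit of AMPK, was the 1 gene that fell at H1R1 (-0.37), and it fell again at H1R18 (-0.74), where PPP2CA, the catalytic subunit of PP2A, also fell (-0.55). PRKAA1 and PPP2CA were named after their values were seen.

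**Figure D4:**
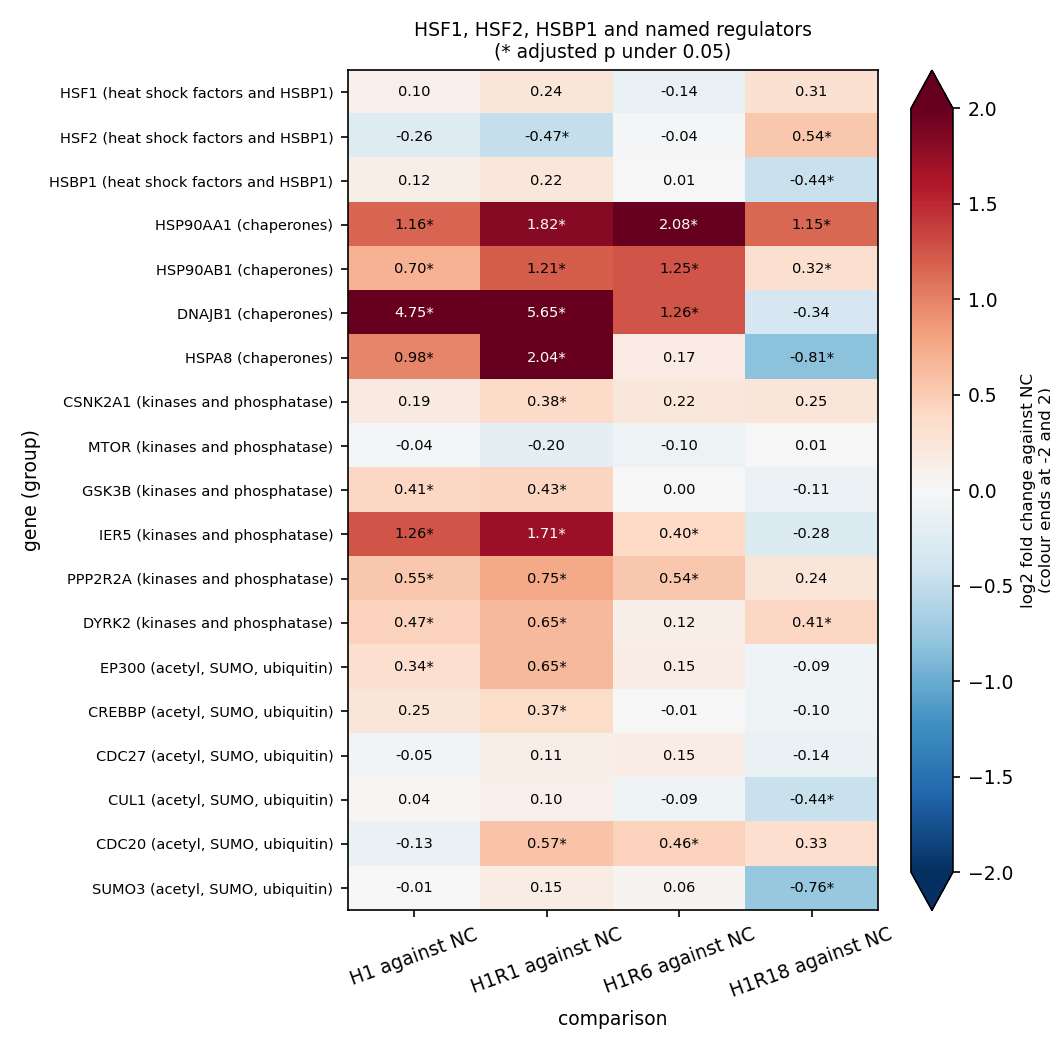
Log2 fold change against NC (colour and printed value, with colour ending at -2 and 2) of HSF1, HSF2, HSBP1 and 16 named regulators at H1, H1R1, H1R6 and H1R18, with a star where the adjusted p was under 0.05. HSF1 has no star in any column, while HSP90AA1 and HSP90AB1 have one in all 4.

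Of 16 enzymes for acetylation, SUMO and ubiquitin that act on HSF1 or HSF2, EP300 alone rose at H1 (0.34), 6 rose and none fell at H1R1, CDC20 alone rose at H1R6 (0.46), and 2 rose and 4 fell at H1R18 (median log2 fold changes 0.04, 0.18, 0.10 and -0.12). The shares of all genes called were 5.2%, 20.2%, 7.03% and 11%, so 1 call among 16 genes at H1 and at H1R6 is near the background. EP300 and CREBBP, acetyltransferases for which HSF1 is a substrate, rose at H1R1 by 0.65 and 0.37. CDC20, the activator of the ubiquitin ligase APC/C that marks HSF2 for degradation on heat, rose at H1R1 (0.57), and CDC27, another APC/C part, was called in none of the comparisons with NC (-0.14 to 0.15). SUMO3 fell at H1R18 (-0.76), as did CUL1 (-0.44), the scaffold of the SCF ubiquitin ligase. Also at H1R18, SKP1 (-0.44) fell and HDAC7 (0.63) rose, and both were named after their values were seen. The EP300 call at H1 was lost without NC replicate 2 or either H1 library and with only the conditions compared (adjusted p 0.0502 to 0.268), and the CUL1 call without NC replicate 2 or with only the conditions compared (0.0537 to 0.0562).

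Of 13 tested genes listed as coactivators and DNA-bound partners of the heat shock factors, none was called at H1 (median 0.01), 4 rose and none fell at H1R1 (0.11), 1 rose and 2 fell at H1R6 (0.14), and 3 rose and 1 fell at H1R18 (0.00), where 5.2%, 20.2%, 7.03% and 11% of all genes were called. SMARCA4, the motor of the BAF chromatin remodelling complex, and the elongation factor EEF1A1 both fell at H1R6 by 0.25 on the log2 scale, and TPR of the nuclear pore was called in none of the comparisons with NC. STRAP, which was listed by its symbol and is a WD-repeat protein, not the p300 cofactor of the same name, rose at H1R1 (0.38) and H1R6 (0.28), so the 1 gene counted as rising at H1R6 and 1 of the 4 at H1R1 are STRAP. PPARGC1A, the coactivator PGC-1 alpha, was at 18.0 CPM at H1R18 and 6.93 and 7.83 CPM in NC. At H1R18 it rose by 1.29 (SE 0.35, adjusted p = 0.0151), a call lost without NC replicate 1 (adjusted p = 0.0694). RPA1 (0.31) also rose at H1R1, and at H1R18 SYMPK (0.36) rose and SSBP1 (-0.90) fell, all 3 named after their values were seen. The SMARCA4 call was lost in 6 alternatives (adjusted p 0.0556 to 0.252), among them without NC replicate 1, H1 replicate 2 or either H1R6 library. The STRAP call at H1R6 was lost in 6 (adjusted p 0.0522 to 0.225), the replicate block and the fits without either NC library, H1 replicate 1 or either H1R6 library.

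Heat shock factor target genes give the scale of the response against which the 3 transcripts stood. Of 25 tested, 23 rose at H1, 24 at H1R1, 20 at H1R6 and 8 at H1R18, while none fell at H1 or H1R1, 1 fell at H1R6 and 6 fell at H1R18. The median log2 fold changes were 1.61, 2.04, 1.24 and 0.14, and 5.2%, 20.2%, 7.03% and 11% of all genes were called. HSPA6, a strictly inducible HSP70, was at 565 and 690 CPM at H1R1 and 0.82 and 3.13 CPM in NC (log2 fold change 8.39 at H1R1 and 6.97 at H1). It rose by 2.23 at H1R18, a call lost with DESeq2, with halved counts and without NC replicate 1 (adjusted p 0.0601 to 0.238). HSPH1, an HSP110, rose by 3.68, 4.34, 4.26 and 1.27 at H1, H1R1, H1R6 and H1R18, and the mitochondrial chaperonin HSPD1 by 1.34, 1.5, 1.28 and 0.46. HSPA8, DNAJB1, FKBP4, HSP90AA1, HSP90AB1 and IER5 are in this list and also in a regulator list, and HSPA1A, HSPA1B and HSPA1L were not tested.

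For each of the 3 transcripts, the genes most like it were taken as the 5 with the highest Pearson r of log2 CPM over the 9 libraries, among 11746 genes of average log2 CPM of at least 3. For HSF1 they were NALF2 (0.95), MED30 (0.95), PGM3 (0.94), TMED3 (0.93) and POMT1 (0.93). For HSF2 they were PDZD7 (0.98), SENP7 (0.97), LPCAT4 (0.97), STON1 (0.96) and ZBTB46 (0.96). For HSBP1 they were SLC1A3 (0.99), HMGB1 (0.98), LINC01176 (0.98), KHSRP (0.98) and C1QBP (0.98). Without the H1R18 library these 15 values of r were between 0.91 and 0.97. The genes were picked for their r over these same libraries, so moving with the transcript follows from the choice and is no separate result. SENP7, a SUMO protease, fell at H1R1 against NC (-0.74) as HSF2 did, and LPCAT4 fell at H1R1 (-0.58) and rose at H1R18 (0.81). HMGB1, a chromatin protein, fell at H1R18 (-0.65) as HSBP1 did, and it rose at H1R1 (0.43), where HSBP1 had 0.22. The call of SENP7 at H1R1 was lost without NC replicate 2 (adjusted p = 0.151), that of LPCAT4 at H1R1 without NC replicate 2 or H1R1 replicate 2 (0.102 to 0.216) and at H1R18 without NC replicate 1 (0.0652).

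**Figure D5:**
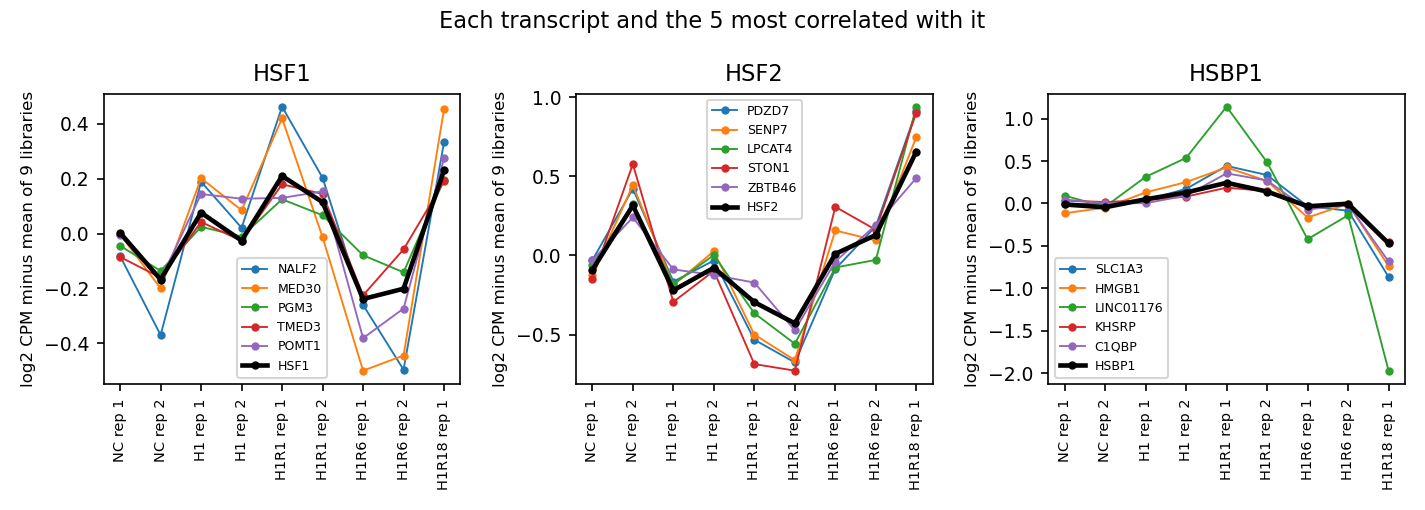
Log2 CPM minus its mean over the 9 libraries (vertical axis) in each library for HSF1, HSF2 and HSBP1 (black) and the 5 genes with the highest Pearson r with each (colours, r 0.93 to 0.99). The HSBP1 panel has its lowest points in the H1R18 library, where the HSF2 panel has its highest.

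In GRCh38 with the Ensembl models of the count table, HSF1 (ENSG00000185122) lies on the plus strand of chromosome 8 from 144291591 to 144314720, HSF2 (ENSG00000025156) on the plus strand of chromosome 6 from 122399551 to 122433119, and HSBP1 (ENSG00000230989) on the plus strand of chromosome 16 from 83807978 to 83819737. The last 137 bases of HSF1 overlap DGAT1 on the other strand, and because strand was not used, reads there fit both genes and were not counted. BOP1, a ribosome biogenesis factor, starts 152 bases from HSF1 on the other strand and fell at H1R18 against NC (-0.33, SE 0.11, adjusted p = 0.0391), where HSF1 had 0.31. That call was lost in 14 alternatives (adjusted p 0.0515 to 0.133), among them all 6 fits that left out a library of NC, H1 or H1R6. DGAT1, an enzyme of triglyceride synthesis, rose at H1R18 (0.50, SE 0.16, adjusted p = 0.0344), a call lost without either NC library and with no filter (0.0513 to 0.0888). CDH13-AS2, which starts 143 bases from HSBP1 on the other strand, had at most 2 counts in a library. The nearest neighbour of HSF2, ENSG00000279453, is 3669 bases away on the other strand, had 42 to 86 counts, and was called in none of the comparisons with NC.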

How the data were processed

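RNA was measured in 9 HEK293T libraries grouped by their labels. The deposited table holds read counts that the authors made from ribosome-depleted total RNA. Its header and the processing notes name trimming by cutadapt 4.1, alignment by HISAT2 2.2.1 to GRCh38 and counting by featureCounts 2.0.2 with Ensembl 104 models, without strand and with each read of a pair counted, so that most counts were even (81.8% to 87.5% of nonzero counts in a library). The notes also name FastQC 0.11.8 and DESeq2 1.38.3. No RNA-seq test is given in the sources used here. Symbols were found for 60463 of 60664 identifiers (99.7%).

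Counts were filtered with filterByExpr (minimum count 10, minimum total 15), scaled by TMM and fitted with 1 coefficient per condition over all 9 libraries in edgeR 4.0.16 (R 4.3.3, limma 3.58.1), by the quasi-likelihood test. Benjamini-Hochberg adjustment was over 21139 genes. The SE was the size of the log2 fold change divided by the square root of F. The common biological coefficient of variation was 0.0905, and the median library held 5533404 counts. Replicates of a condition differed by more than counting error (chi-square per degree of freedom 1.71 to 2.35 on counts of pairs). The alternatives were 3 other scalings (RLE, upper quartile, library size), DESeq2 1.42.0, no filter on low counts, a minimum of 10 in every library, a fit of only the compared conditions, halved counts, a replicate block, and leaving out each library.

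The 3 genes and the lists were chosen with earlier results of these data known. Named genes were the 3, their family, the 4 most abundant and the 4 with the smallest adjusted p of each other list, genes within 5 kb, and the 5 genes most correlated with each. Some listed genes that are counted here are not reported by name, and the alternatives were not run for genes named after their values were seen. Python 3.11.15, pandas 2.3.3 and matplotlib 3.10.9 were also used, with transcript lengths from GENCODE 29.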

Additional observations from a re-analysis of the deposited data

Results flagged for a closer look

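The 3 transcripts differed from each other in how they moved from H1R1 to H1R6 and from H1R6 to H1R18. The difference between these 2 steps was not tested. HSF1 had a log2 fold change of -0.385 at H1R6 against H1R1 and 0.45 at H1R18 against H1R6, so its direction turned. HSF2 rose in both steps, by 0.427 and then 0.586. HSBP1 was negative in both steps, at -0.214 without a call and then at -0.452 with one, while HSF1 and HSF2 rose in the second step. Apart from the -0.214 of HSBP1, these values were marked because each was called, with adjusted p under 0.05, between a time and the one before it. The H1R6 libraries enter both steps on opposite sides, and H1R18 is 1 library. No condition had the 4 libraries needed to test for an outlying library.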

How the results depend on the processing

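Under 18 alternatives (17 where H1R18 is compared), the values of the 3 transcripts kept their direction and side of the threshold in 347 cases, lost the call in 23 and turned sign in 2. With each library left out in turn, HSF2 ranged from -0.67 to -0.26 at H1R1 against NC, from -0.23 to 0.18 at H1R6 against NC (0.18 without NC replicate 2 and 0.04 without H1R6 replicate 1), from 0.36 to 0.77 at H1R18 against NC, from 0.36 to 0.50 at H1R6 against H1R1 and from 0.53 to 0.65 at H1R18 against H1R6 on the log2 scale. HSF1 ranged from -0.43 to -0.34 at H1R6 against H1R1 and from 0.43 to 0.47 at H1R18 against H1R6, and HSBP1 from -0.44 to -0.40 at H1R18 against NC. Calls were also lost with DESeq2 (HSF2, 0.56 at H1R18 against NC and 0.44 at H1R6 against H1R1), with library-size scaling (HSF1, -0.29 at H1R6 against H1R1) and with only the conditions compared (HSBP1, -0.41 at H1R18 against NC); the cause was not tested. HSF1 and HSBP1 were not called against NC at H1, H1R1 or H1R6 under any of them. The other named genes kept direction and side of the threshold in 1212 cases and lost a call in 94.

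The number of genes called ranged, with a library left out, from 493 to 1150 at H1 against NC, 2297 to 4295 at H1R1, 581 to 1544 at H1R6, 959 to 2636 for H1R1 against H1, 1648 to 3492 for H1R6 against H1R1 and 1769 to 3191 for H1R18 against H1R6. Library-size scaling moved the share of calls that were higher from 52.8% to 42.3% at H1R1 against NC, from 55.6% to 43.4% for H1R1 against H1 and from 41.9% to 62.3% for H1R6 against H1R1. The replicate block called 1069, 4180, 1452, 2084, 2342, 3162 and 2619 genes in the comparisons of H1, H1R1, H1R6 and H1R18 with NC and of each later time with the one before it, and changed no call of the 3 transcripts. Same-numbered libraries did not deviate together (r -0.04 to 0.04), so the numbers were not taken as pairs. Depth (150 to 298 HSF2 counts in a library) and 2 libraries a condition limit what can be called.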
